A study of Mus musculus with 6 samples.

Results

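The genes described here are 44 members of the interferon response and of antigen presentation on major histocompatibility complex (MHC) class I. They were chosen by mouse gene symbol from a count table of 49671 Ensembl genes, and all 44 were found and passed the filter on low counts, out of 14946 genes tested. The study compared differentiated preadipocytes in which Tcf7l2, a transcription factor gene of the Wnt pathway, had been deleted with the same cells left undeleted. They derive from preadipocytes isolated from inguinal fat of 3-month-old C57BL/6 mice with both Tcf7l2 alleles floxed (Tcf7l2 F/F). The preadipocytes had been sorted for CD34, Sca1 and CD29 and against CD31, CD45 and Ter-119.

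All groups carried SV40 large T antigen, which had immortalised the line, and CreERT2, a Cre recombinase switched on by 4-hydroxytamoxifen, both from retroviral vectors. Control cells (3 libraries, labelled wild type) received ethanol, and knockout cells (3 libraries) received 4-hydroxytamoxifen, in each case for 24 h and 2 days ahead of differentiation. Both were then given dexamethasone, isobutylmethylxanthine and insulin for 2 days, kept in insulin, and taken at day 8. The labels add an agent at 5 nM whose code differs in every library. What that agent is and whether it differed between libraries could not be settled. Deletion and drug treatment coincide, so their effects cannot be told apart. The labels do not say whether the line is 1 clone or whether libraries of a group are separate cultures, so each p-value reflects only how far these libraries spread, and that spread may be technical.

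Interferons are secreted proteins that warn cells of viral nucleic acid. Type I interferons bind the receptor made of Ifnar1 and Ifnar2, which through the kinases Jak1 and Tyk2 activates a complex that holds Stat2 and Irf9. That complex binds the interferon-stimulated response element (ISRE) in front of antiviral genes. Interferon-gamma signals through Ifngr1 and Ifngr2 to genes that carry the gamma-activated site (GAS). Many of the induced genes cut or trap viral RNA, and others load peptides onto MHC class I for display to T cells. Adipocytes and their precursors carry these receptors and can respond to both kinds of interferon.

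The ISRE is shown first, as the element that the type I complex binds in front of antiviral genes. RefSeq promoters (GRCm38.p6) were matched for 35 of the 44 members, and the 250 bases before each start site were searched on both strands. The ISRE core was searched as GAAA, any 2 bases and GAAA, which on the other strand reads TTTC, any 2 bases and TTTC. It was present in 11 of the 35 promoters (31.4%), against 936 of 27025 genes with a promoter (3.46%). By role it was found for 9 of 16 interferon-stimulated genes, 1 of 7 sensor and transcription factor genes, 1 of 8 antigen presentation genes and 0 of 4 receptors. The GAS, searched as TTCNNNGAA, was present for 6 of 35 members (17.1%) and 2197 of 27025 genes (8.13%). In Bst2 the GAS and the ISRE overlap. A match is a description of the letters and not a bound site. The windows below, chosen after the values were seen, give 15 bases on either side of the ISRE core, 5′ to 3′ on the gene's strand, with the core in capitals.
Isg15 (chr4:156200860-156200911, minus strand, 3 overlapping cores): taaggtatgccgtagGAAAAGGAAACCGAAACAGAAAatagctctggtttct
Ifit1 (chr19:34640770-34640828, plus strand, 2 cores): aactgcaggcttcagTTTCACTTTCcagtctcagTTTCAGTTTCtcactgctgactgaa
Stat2 (chr10:128270261-128270300, plus strand): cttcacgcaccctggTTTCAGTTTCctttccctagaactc
Gbp2 (chr3:142620589-142620628, plus strand): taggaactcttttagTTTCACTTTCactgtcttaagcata
Gbp3 (chr3:142559984-142560029, plus strand, 2 overlapping cores): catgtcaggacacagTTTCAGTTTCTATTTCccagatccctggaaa
Cxcl10 (chr5:92349078-92349117, minus strand): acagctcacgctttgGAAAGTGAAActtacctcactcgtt
B2m (chr2:122147533-122147572, plus strand): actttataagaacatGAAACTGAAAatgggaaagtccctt

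The libraries held 26621293 to 33484764 counts, and the 44 genes took 1.08% to 1.33% of them. The label of adipocyte was checked against its markers, and all 8 adipocyte markers had counts in every library. Adipoq, for adiponectin, was at 555 to 607 CPM (counts per 1e6 counts of the scaled library size) in control and 949 to 1025 CPM in knockout libraries. Lep was low, at 0.425 to 0.804 CPM in control and 1.91 to 2.61 CPM in knockout libraries. Markers of white blood cells were absent or low, with Csf1r at 2.37 to 3.39 CPM in control and 2.45 to 3.02 CPM in knockout libraries. Of 14 such markers, Adgre1 and Cd3e were among those with no count in any library, the CD45 gene Ptprc had 2 counts in all control and 1 in all knockout libraries, and the 14 together summed to 6.66 to 7.95 CPM in control and 7.22 to 8.48 CPM in knockout libraries. Tcf7l2 was at 6.13 to 9.11 CPM in control and 5.65 to 6.85 CPM in knockout libraries without a call in edgeR (log2 change -0.32, SE 0.14, adjusted p = 0.125). Counts over a whole gene do not show the loss of floxed exons, so this does not check the labels. The 8 preadipocyte and fibroblast markers summed to 4635 to 4748 CPM in control and 4426 to 4547 CPM in knockout libraries. Of these 8, 6 had a log2 fold change below 0 and 2 above, with 2 called lower and 0 higher. Ly6a was among the 2 above, at 643, 572 and 797 CPM in control and 821, 948 and 986 CPM in knockout libraries. It was not called (edgeR adjusted p = 0.0539), but was in 7 of 15 alternative analyses. Control replicate 3 stood above the other control libraries, and knockout replicate 1 below the other knockout libraries, in most of the 44 genes, and the counts of calls are therefore also given without each library. In bulk RNA a smaller number of cells of a type and less RNA in each cell cannot be told apart.

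The interferon and MHC class I genes were expressed in both groups, and 1 of the 44 was called different. Ifi27, which encodes a small membrane protein of the interferon-inducible ISG12 family, rose 1.35-fold. A gene is called here at a Benjamini-Hochberg adjusted p under 0.05 in edgeR's quasi-likelihood test over all tested genes. In all, 1 member was higher (2.27% of 44) and 0 were lower. Over all tested genes 22.4% were called, 11.9% higher and 10.5% lower. Among the 6030 tested genes at least as abundant as the lowest of the 44, 31.4% were called. At an unadjusted p under 0.05 there were 7 members (15.9%), against 34.1% of all tested genes. The groups did not overlap in 5 members (11.4%), namely Ifi27, H2-K1, Irf1, Ifnar1 and Ifnar2, against 37.9% of all tested genes. The median log2 fold change, knockout over control, was 0.064 for the 44 genes and -0.0017 for all tested genes.

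A call that was missed does not show that a gene held still, and the intervals give what the libraries allow. Of the 43 members not called, the 95% interval of the fold change lay within 1.5-fold either way for 36 and within 2-fold for 42. The exception was Mx1, with an interval of the log2 fold change from 0.035 to 1.03.

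**Figure D1:**
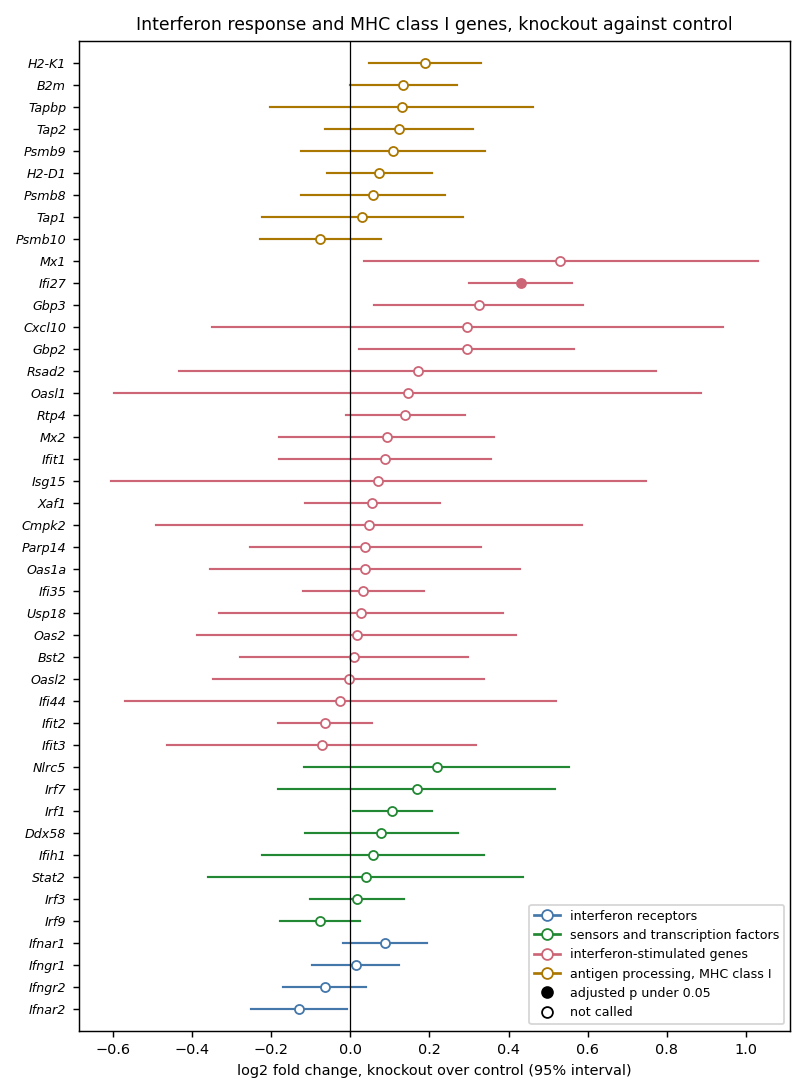
Log2 fold change of the 44 genes, knockout over control (x axis), by gene (y axis) and coloured by role, with points for edgeR's estimate and lines for its 95% interval from 3 libraries a group. Ifi27 (0.43) is the only filled point, and the interferon-stimulated genes have wide intervals, such as -0.60 to 0.89 for Oasl1, while those of the receptors stay between -0.25 and 0.19.

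The receptor genes were the steadiest group. Ifnar1, for the signalling chain that binds Tyk2, was at 79.1, 83.4 and 83.5 CPM in the control libraries and 83.8, 89.2 and 88.4 CPM in the knockout libraries. The knockout libraries lay above the control libraries by a small step (log2 change 0.088, SE 0.049, adjusted p = 0.233 by edgeR). Ifnar2, for the chain that binds Jak1, went the other way, with 44.6, 42.7 and 47.1 CPM in control and 41.4, 40.3 and 41.2 CPM in knockout libraries. It was not called either (log2 change -0.13, SE 0.056, adjusted p = 0.119 by edgeR). Ifnar2 shares 9.46% of its exonic bases with the same-strand gene Gm21970. Of the interferon-gamma receptor chains, Ifngr1, which binds the ligand, was at 128, 121 and 119 CPM in control and 129, 117 and 125 CPM in knockout libraries. Ifngr2, the accessory chain, was at 75.1, 77.3 and 74.2 CPM in control and 70.2, 74.7 and 71.6 CPM in knockout libraries. Both overlapped between the groups. Summed over the 4 receptor genes, the control level was 325 ± 1 CPM and the knockout level 324 ± 2.08 CPM (SD, n = 3 each).

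None of the 8 sensor and transcription factor genes was called, with adjusted p from 0.124 to 0.896, and 1 had an unadjusted p under 0.05. Ifih1 and Ddx58 encode MDA5 and RIG-I, the helicases that detect long and 5′-triphosphate viral RNA in the cytoplasm. Ifih1 was at 242, 228 and 299.8 CPM in control and 236, 281 and 283 CPM in knockout libraries. Ddx58 was at 346, 322 and 399 CPM in control and 337, 396 and 393 CPM in knockout libraries. In both genes control replicate 3 reached the level of knockout replicates 2 and 3, and knockout replicate 1 sat with control replicates 1 and 2.

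A like order was seen in Irf7, Stat2 and Nlrc5. Irf7, the factor that amplifies interferon production, was at 388, 304 and 437 CPM in control and 376, 445 and 448 CPM in knockout libraries (log2 fold change 0.17, 95% interval -0.18 to 0.52). Stat2, a part of the type I complex, was at 192, 196 and 262 CPM in control and 190, 252 and 224 CPM in knockout libraries (0.039, -0.36 to 0.44). Nlrc5, the transactivator of MHC class I genes, was at 35.6, 35 and 48.1 CPM in control and 40.8, 51.1 and 45.8 CPM in knockout libraries (0.22, -0.12 to 0.55). These ranges overlap, and in each gene the spread within a group was wider than the step between groups.

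The other 3 factor genes hardly varied between libraries. Irf9, the DNA-binding part of the type I complex, was at 175, 174 and 183 CPM in control and 164, 165 and 175 CPM in knockout libraries. Irf3, the factor that the RNA sensors activate by phosphorylation, was at 34.5, 34.3 and 34 CPM in control and 33.8, 34.6 and 35.8 CPM in knockout libraries. Irf1, a factor induced by interferon-gamma, was at 86.7, 82.8 and 86.5 CPM in control and 90.2, 91.9 and 93.5 CPM in knockout libraries. The Irf1 values did not overlap between the groups, yet the step was 1.08-fold and was not called (log2 change 0.11, SE 0.047, adjusted p = 0.124 by edgeR).

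Of the 23 interferon-stimulated genes, 1 was called higher and 0 lower, with a median log2 fold change of 0.055. Ifi27 (ENSMUSG00000064215, GRCm38 chromosome 12, 103434211 to 103440239, plus strand) was at 386, 402 and 352 CPM in the control libraries. In the knockout libraries it was at 548, 499.9 and 488 CPM, all above every control library. Its log2 fold change was 0.43, with an SE of 0.06 and an adjusted p of 1.64e-04 by edgeR. The mean went from 380 ± 25.9 to 512 ± 31.7 CPM (SD, n = 3 each). Ifi27 stayed called in all 15 alternative analyses, with log2 fold changes from 0.37 to 0.47 and adjusted p up to 0.00195. Its order within the groups was the reverse of that of the other interferon-stimulated genes: control replicate 3 was its lowest control and knockout replicate 1 its highest knockout library. The 7 adipocyte markers that were called, of 8, rose as well, and the part of adipocyte content in the Ifi27 value was not tested.

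The Ifit genes and Bst2 had group means that differed by less than the SD within either group. Ifit1, which binds viral RNA lacking cap methylation, was at 642, 644 and 789 CPM in control and 630.1, 797 and 777 CPM in knockout libraries (log2 fold change 0.087, 95% interval -0.18 to 0.36). Ifit3, its partner protein, was at 606, 600.1 and 794 CPM in control and 523, 687 and 692 CPM in knockout libraries (-0.073, -0.46 to 0.32). Ifit2, of the same chromosome 19 cluster, was at 193, 191 and 210.1 CPM in control and 177, 194 and 198 CPM in knockout libraries (-0.063, -0.18 to 0.056). The groups overlapped in all 3. Of the 50-base stretches in Ifit3 transcripts, 51.2% also occur in Ifit3b, and its counts are uncertain by as much as the counting shared such reads. Bst2, or tetherin, which holds budding virus at the cell surface, was at 413, 369 and 490.1 CPM in control and 375, 443 and 464 CPM in knockout libraries. The control mean was 424 ± 61.1 CPM and the knockout mean 427 ± 46.8 CPM (SD, n = 3 each).

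Isg15 is a ubiquitin-like protein attached to other proteins, and Usp18 removes it and also blocks the type I receptor. Isg15 was at 143, 142 and 218 CPM in control and 135, 216 and 175 CPM in knockout libraries. Usp18 was at 183, 173 and 233 CPM in control and 169.7, 217 and 214 CPM in knockout libraries. The log2 fold changes were 0.071 (95% interval -0.60 to 0.75) and 0.026 (-0.33 to 0.39). For Isg15 the libraries of a group differed by more than 1.5-fold, and a change of that size between the groups was not detectable with these libraries.

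The oligoadenylate synthetase genes, whose products make the messenger that activates RNase L, followed the same course, as did the related Oasl genes. Oas1a was at 54.6, 47.2 and 71.3 CPM in control and 52.9, 63.8 and 60.6 CPM in knockout libraries, and 57.6% of its 50-base stretches also occur in Oas1g. Oas2 was at 70.7, 64.4 and 94.1 CPM in control and 66.6, 83.4 and 81.4 CPM in knockout libraries. Oasl1, a translational regulator of Irf7, was at 43.5, 35.6 and 65 CPM in control and 40.3, 60.3 and 58.3 CPM in knockout libraries. Oasl2 was at 275, 269.5 and 372 CPM in control and 275, 325 and 314 CPM in knockout libraries. In each of the 4 genes control replicate 3 was the highest of all 6 libraries. The fitted changes ran from -0.0041 for Oasl2 to 0.14 for Oasl1 on the log2 scale.

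Rsad2, or viperin, makes a chain-terminating nucleotide from CTP, and Cmpk2, a nucleotide kinase gene lying beside it on chromosome 12, belongs to the same pathway. Rsad2 was at 140.5, 127 and 198 CPM in control and 139, 177 and 206 CPM in knockout libraries. Cmpk2 was at 62.4, 54.1 and 85 CPM in control and 56.8, 75.9 and 75.4 CPM in knockout libraries. Ifi44, an interferon-induced cytoplasmic protein, was at 166, 152 and 243 CPM in control and 163, 186 and 203 CPM in knockout libraries. All 3 overlapped between the groups and none was called, with edgeR adjusted p of 0.67, 0.906 and 0.95.

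Other members varied less. Rtp4 was at 177, 162 and 192 CPM in control and 177, 202 and 205 CPM in knockout libraries (log2 fold change 0.14, 95% interval -0.012 to 0.29). Xaf1, an antagonist of an apoptosis inhibitor, was at 114, 102 and 124 CPM in control and 106, 120 and 126 CPM in knockout libraries. Ifi35 was at 111, 106 and 129.6 CPM in control and 111, 121 and 121 CPM in knockout libraries, and shares 16.8% of its exonic bases with Gm11626 on the opposite strand. Parp14, an ADP-ribosyltransferase, was at 193, 198 and 253 CPM in control and 195, 234 and 233 CPM in knockout libraries. None of these 4 was called, and the ranges of the groups overlapped in each.

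The myxovirus resistance, guanylate-binding and chemokine genes held the members with the largest fitted changes besides Ifi27, and none of them passed the test. Mx1, of the dynamin-like GTPase family, was at 23.1, 22 and 31.1 CPM in control and 27.9, 40.7 and 41.2 CPM in knockout libraries (log2 change 0.53, SE 0.2, adjusted p = 0.124 by edgeR). Its paralog Mx2 was at 40.7, 40 and 50.4 CPM in control and 39.5, 49.2 and 50.9 CPM in knockout libraries (0.093, SE 0.12; adjusted p = 0.635). Gbp3 was at 369.6, 345 and 462 CPM in control and 455, 489.8 and 528 CPM in knockout libraries (0.32, SE 0.11; adjusted p = 0.0831). Gbp2 was at 153, 138 and 179 CPM in control and 168, 196 and 212 CPM in knockout libraries (0.29, SE 0.12; adjusted p = 0.121). The guanylate-binding proteins coat vacuoles of intracellular pathogens and respond strongly to interferon-gamma. In Gbp2 and Gbp3 the overlap came from control replicate 3 against knockout replicate 1. Cxcl10, a chemokine for T cells, was at 28.3, 22.6 and 37.6 CPM in control and 27.2, 39.8 and 41.5 CPM in knockout libraries (0.30, SE 0.25; adjusted p = 0.483).

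Both Gbp2 and Gbp3 crossed the threshold in 5 of 15 alternative analyses and Mx1 in 3. Without control replicate 3, the adjusted p was 0.023 for Gbp2, 0.00052 for Gbp3 and 0.0495 for Mx1. DESeq2 called Gbp2 (adjusted p = 0.00947) and Gbp3 (0.00235) with all 6 libraries. Over all alternatives the adjusted p ran from 1.46e-04 to 0.364 for Gbp2, from 5.38e-05 to 0.284 for Gbp3 and from 0.00993 to 0.367 for Mx1.

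The interferon-stimulated genes differed more between libraries of 1 group than between groups. Control replicate 3 was the highest control library for 22 of the 23, and control replicate 2 the lowest for 20. Knockout replicate 1 was the lowest knockout library for 22 of the 23. The exception, at control replicate 3 as at knockout replicate 1, was Ifi27. Over all tested genes, control replicate 3 was the highest control for 36.8%, control replicate 2 the lowest for 32.9% and knockout replicate 1 the lowest knockout library for 31.1%. The summed level of the 23 genes was 4589, 4406 and 5673 CPM in the control libraries and 4659, 5519 and 5564 CPM in the knockout libraries. Control replicate 3 was thus above every knockout library, and knockout replicate 1 below the highest control. The other interferon-stimulated genes outside the 44 had the same order: of 63 tested, control replicate 3 was the highest control for 56 and knockout replicate 1 the lowest knockout library for 53.

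The order was shared in part by the sensor and antigen presentation genes. Control replicate 3 was the highest control for 6 of 8 sensor and factor genes, 6 of 9 antigen presentation genes and 2 of 4 receptors, and in B2m, H2-K1 and H2-D1 control replicate 1 was the highest. Control replicate 2 was the lowest control for 9 of 9 antigen presentation genes, and knockout replicate 1 the lowest knockout library for 8 of 9 of them, for 8 of 8 sensor and factor genes and for 2 of 4 receptors. Of the 11 members with an ISRE core in the searched window, control replicate 3 was the highest control for 10 and knockout replicate 1 the lowest knockout library for 11. Of the 24 members with a promoter and no core, the numbers were 18 and 21. The median log2 fold change was 0.087 with the core and 0.051 without it. That 0 members were called in either set was fixed beforehand. Ifi27, the only member called, had no matched promoter and is in neither set, nor is Mx1. The calls therefore cannot compare members with and without the core. The median standard deviation of log2(CPM + 1) within groups was 0.175 for the 44 genes, 0.0634 for tested genes at least as abundant and 0.0881 for all tested genes. White blood cell markers, summed, were at 7.95, 6.66 and 7.49 CPM in control and 7.22, 7.96 and 8.48 CPM in knockout libraries. Control replicate 2 and knockout replicate 1 were thus the lowest of their groups in this sum too, and control replicate 1 the highest control, as in B2m, H2-K1 and H2-D1. The part of such cells in the order was not tested.

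**Figure D2:**
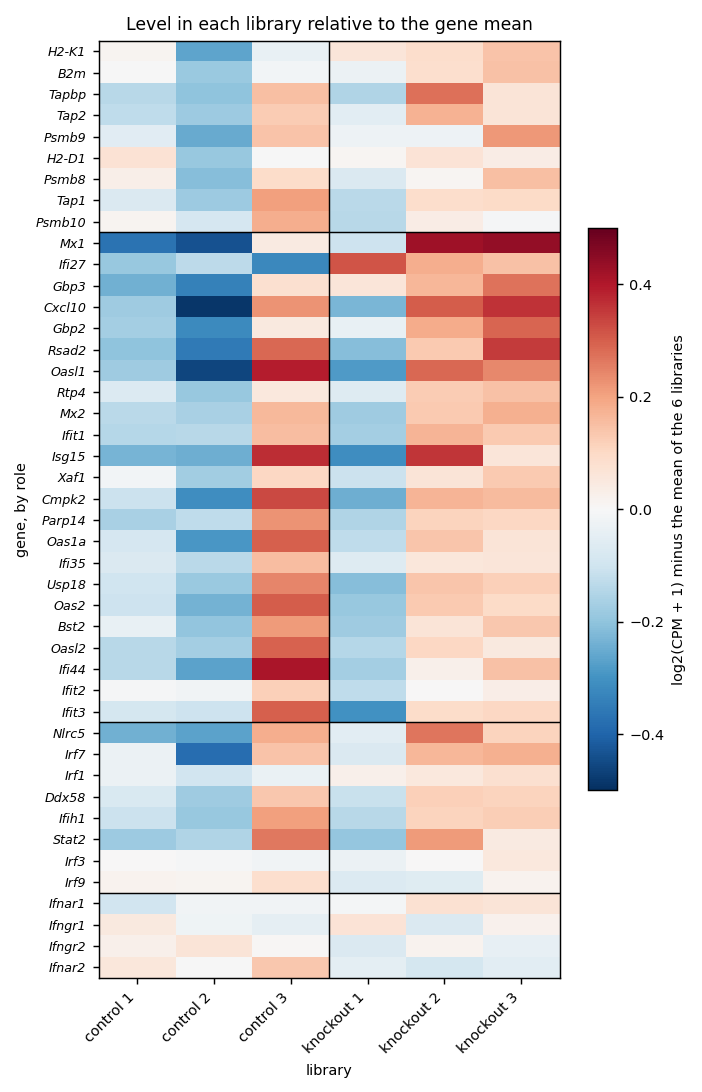
Log2(CPM + 1) of each of the 44 genes minus its mean over the 6 libraries (colour), by gene grouped by role (y axis) and library (x axis). Control replicate 3 and knockout replicates 2 and 3 are red and control replicates 1 and 2 and knockout replicate 1 blue for most interferon-stimulated genes, whereas Ifi27 is blue in all 3 control and red in all 3 knockout libraries, and the 4 receptors are pale.

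Because 1 library could shift most members at once, the comparison was repeated with each library left out. With all 6 libraries 36 members had a log2 fold change above 0 and 8 below, against 7423 and 7523 of all tested genes. Without control replicate 2 the numbers for the members were 20 and 24, with a median of -0.0106. Without control replicate 3 they were 38 and 6, with a median of 0.183. In that fit 6 members were called higher: Ifi27, Gbp3, Gbp2, Mx1, Nlrc5 and Tap2. It called 3119 of 15283 tested genes in either direction. Without knockout replicate 1, 4 members were called higher, namely Ifi27, Mx1, Gbp2 and Rtp4, and 3124 of 15133 tested genes were called. Without control replicate 1, H2-K1 joined Ifi27, and 2145 of 15151 tested genes were called. Without control replicate 2, knockout replicate 2 or knockout replicate 3, Ifi27 was the 1 member called. No member was called lower with all libraries or in any of the 15 alternatives, DESeq2 and limma-voom included. At an unadjusted p under 0.05 in edgeR, 1 member, Ifnar2, had a negative change.

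**Figure D3:**
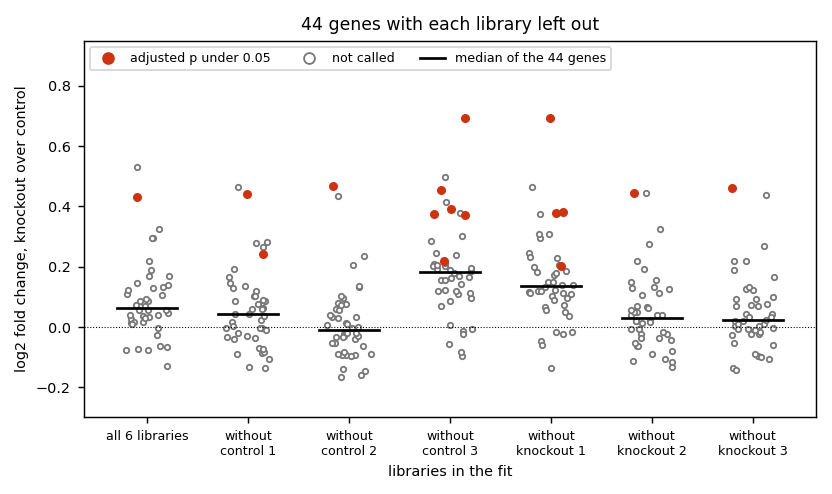
Log2 fold change of the 44 genes, knockout over control (y axis), in the fit to all 6 libraries and with each library left out (x axis). Points are genes, filled red at an edgeR adjusted p under 0.05, and bars are medians, which run from -0.0106 without control replicate 2 to 0.183 without control replicate 3.

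None of the 9 antigen presentation genes was called, and 8 of the 9 fitted changes were above 0, with a median log2 fold change of 0.108. B2m, the light chain shared by all class I molecules, was at 2708, 2379 and 2682 CPM in control and 2651, 2874 and 2999 CPM in knockout libraries (0.13, SE 0.063, adjusted p = 0.151 by edgeR). The heavy chain gene H2-K1 (GRCm38 chromosome 17, 33996017 to 34000347, minus strand) was at 785, 647 and 758 CPM in control. In the knockout libraries it was at 812, 826 and 859 CPM, above every control library (1.14-fold; log2 change 0.19, SE 0.065, adjusted p = 0.0554 by edgeR). H2-K1 passed the threshold in 5 of 15 alternatives, with DESeq2 among them (adjusted p = 0.0367), and its adjusted p ran from 0.00105 to 0.241. The other heavy chain gene, H2-D1, was at 1159, 968 and 1102 CPM in control and 1109.8, 1157 and 1131 CPM in knockout libraries (0.074, SE 0.062; adjusted p = 0.441). Of the 50-base stretches of their transcripts, 9.63% for H2-K1 and 12.8% for H2-D1 also occur in other genes. These are shares of the sequence, and the effect on either count was not measured.

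The genes that cut and carry peptides overlapped between the groups. The immunoproteasome subunit genes replace constitutive catalytic subunits under interferon. Psmb8 was at 104, 88.1 and 109 CPM in control and 97, 103 and 114 CPM in knockout libraries. Psmb9 was at 40.6, 35.2 and 46.7 CPM in control and 41.5, 41.4 and 49.2 CPM in knockout libraries. Psmb10, the 1 gene of this group with a fitted change below 0 (-0.076, 95% interval -0.23 to 0.077), was at 64.2, 60 and 72.2 CPM in control and 57.7, 65.4 and 63.3 CPM in knockout libraries. Their constitutive counterparts were not called either: Psmb5 was at 23.5 to 27.4 and 26.9 to 29.4 CPM, Psmb6 at 157 to 169 and 156 to 160.2 CPM, and Psmb7 at 141 to 153 and 155 to 167 CPM, in control and knockout libraries.

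Tap1 and Tap2 form the pump that moves peptides into the endoplasmic reticulum, and Tapbp, or tapasin, holds the class I molecule beside it. Tap1 was at 172, 159 and 208 CPM in control and 164, 192 and 193 CPM in knockout libraries. Tap2 was at 65.3, 62.9 and 78.1 CPM in control and 68.9, 80.8 and 74.8 CPM in knockout libraries. Tapbp was at 223, 213 and 272 CPM in control and 221, 297 and 257 CPM in knockout libraries. The log2 fold changes were 0.03, 0.12 and 0.13, with edgeR adjusted p of 0.882, 0.348 and 0.566. Exons overlap genes on the opposite strand for Psmb8 (14.7% of its exonic bases, Gm20496), Tap2 (14.1%, Gm15821) and Tapbp (24.9%, Gm19412). Whether the counting used strand is not given in the sources used here.

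Per kilobase of exon, which allows levels of different genes to be set side by side, B2m stood first at a mean of 3010 CPM per kb in control and 3300 CPM per kb in knockout cells. Bst2 (470 and 473), H2-D1 (417 and 439), Ifit3 (382 and 363), Ifit1 (260 and 277), Ifi27 (259 and 349), H2-K1 (249 and 283) and Isg15 (221 and 232 CPM per kb) came next. Ifi27 moved from the sixth place to the fifth, ahead of Ifit1. The receptor genes were lower, from 13.5 (Ifnar2) to 43.1 CPM per kb (Ifngr1) in control cells. Nlrc5 was the lowest of the 44, at 4.66 CPM per kb in control and 5.4 CPM per kb in knockout cells, and Mx1 the next, at 6.71 and 9.67 CPM per kb. In control cells Ifit1, Ifi27 and H2-K1 lay closer to each other than the spread between libraries.

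**Figure D4:**
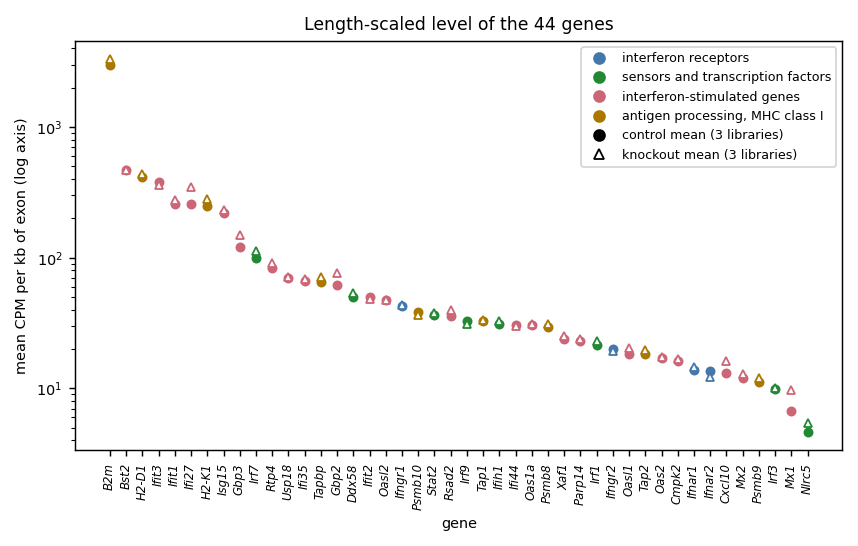
Mean CPM per kb of exon (y axis, log scale) of the 44 genes (x axis, ordered by the control mean), with circles for control and triangles for knockout means of 3 libraries and colour for role. B2m lies far above the rest at 3010 and 3300 CPM per kb, and for most genes the circle and triangle coincide.

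Of 151 other genes of the pathway, 126 were tested, and 14 rose and 8 fell (17.5% called, against 22.4% of all tested genes). The counts of each list below stand beside 11.9% higher and 10.5% lower over all tested genes. The interferon genes themselves were near or at 0. Ifnb1, for interferon-beta, was counted 1, 2 and 5 times in control and 3, 4 and 6 times in knockout libraries. Ifna1, Ifna2, Ifna5, Ifne, Ifnk, Ifnl2 and Ifnl3 had no count in any library, which allows up to 3 counts, or 0.0893 to 0.113 CPM in a library. Ifng had 2 counts, both in control replicate 2. Day 8 is the only time sampled, so earlier interferon expression was not measured.

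Between receptor and nucleus, Jak1, the kinase shared by the type I, type III and gamma receptors, fell 1.23-fold. It was at 441, 456 and 446 CPM in control and 376, 354 and 363 CPM in knockout libraries (log2 change -0.30, SE 0.046, adjusted p = 3.53e-04 by edgeR), and the call held in all 15 alternatives. Irf5, a factor downstream of Toll-like receptors, fell 1.55-fold from 6.34, 7.26 and 5.95 to 3.48, 4.91 and 4.18 CPM (edgeR adjusted p = 0.0041). Irf5 shares 14.1% of its exonic bases with Tnpo3 on the opposite strand. Of 13 tested genes of ligands, kinases and STAT signalling, Jak1 and Irf5 fell and 0 rose.

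Of 19 tested nucleic acid sensing genes, 1 rose and 1 fell. Mavs, the mitochondrial adaptor of the RNA sensors, rose 1.2-fold from 38.7, 36.3 and 38.6 to 43.2, 46.9 and 45.9 CPM (edgeR adjusted p = 0.00501; called in all 15 alternatives). Tmem173, which encodes STING, the adaptor of the DNA sensor cGAS, fell 1.18-fold from 36.9, 34.4 and 35.6 to 30.2, 31.3 and 28.9 CPM (adjusted p = 0.0102). Tmem173 was called in 12 of 15 alternatives. It was not called at an adjusted p under 0.01, or without control replicate 1 or knockout replicate 3 (adjusted p up to 0.0657 over the alternatives).

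Of 63 other tested interferon-stimulated genes, 8 rose and 3 fell, against 11.9% and 10.5% of all tested genes. Their median log2 fold change was 0.104. Iigp1, Ifi27l2a, Nampt and Pnpt1, named with their values already known, rose without overlap from higher levels. Their control and knockout means were 464 and 592, 506 and 619.7, 334 and 393, and 98.4 and 114 CPM. The edgeR adjusted p-values were 0.0359, 0.0477, 0.0145 and 0.0363, with calls in 10, 9, 12 and 11 of 15 alternatives. The largest rises without overlap were in low genes. Ccl5, a chemokine, rose 1.7-fold from 2.11, 1.91 and 2.49 to 2.88, 5.1 and 2.99 CPM, Gbp9 1.67-fold from 1.64, 1.24 and 1.77 to 2.21, 2.93 and 2.61 CPM, and Ifitm1 1.51-fold from 1.07, 1.1 and 1.39 to 1.84, 2.04 and 1.42 CPM. Their edgeR adjusted p-values were 0.0321, 0.00953 and 0.0489. Gbp9 lost its call without control replicate 2 (adjusted p = 0.052), Ccl5 in 4 of 15 alternatives, among them the fits lacking control replicate 1 or 2 or knockout replicate 2 (up to 0.129), and Ifitm1 in 9 of 15 alternatives (up to 0.18). Of the other guanylate-binding genes, given with their values already known, Gbp5 (7.38 ± 2.08 and 11.2 ± 2.69 CPM; SD, n = 3), Gbp7 (160.3 ± 23.6 and 184 ± 19.3 CPM) and Gbp6 (16.3 ± 1.73 and 17.2 ± 1.31 CPM) were not called, and Gbp4 was too low to test. The falls were in Plscr1, a phospholipid scramblase (1.32-fold lower, adjusted p = 0.00126), Ifi30, a lysosomal thiol reductase (1.21-fold, 0.0106), and Slfn5 of the Schlafen family (1.19-fold, 0.00142). Plscr1 and Slfn5 were called in all 15 alternatives, and Ifi30 in 12 of 15. Ifi30 was not called at an adjusted p under 0.01, or without control replicate 2 or knockout replicate 3 (adjusted p up to 0.0668).

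Of 28 other class I and peptide loading genes, 5 rose and 2 fell, against 11.9% and 10.5% of all tested genes. Cd1d1, a class I-like molecule that presents lipids, rose 1.66-fold from 21.4, 21.6 and 23.1 to 36.7, 34.9 and 38.1 CPM (log2 change 0.73, SE 0.063, adjusted p = 3.27e-06 by edgeR), and was called in all 15 alternatives. The class I gene H2-K2 rose 1.39-fold at 2.27 to 2.8 CPM in control and 3.11 to 4.03 CPM in knockout libraries (adjusted p = 0.0349), and Rfxank, a subunit of the factor that binds MHC promoters, rose 1.2-fold (adjusted p = 0.025). Rfxank shares 33.8% of its exonic bases with Nr2c2ap on the opposite strand. Psme2, a subunit of the interferon-inducible proteasome activator PA28, was singled out with its values already known and rose 1.2-fold from 49.5, 49.2 and 47.6 to 63.7, 54.9 and 56.8 CPM (adjusted p = 0.0074; called in all 15 alternatives). Psme1, for another PA28 subunit, rose 1.15-fold (edgeR adjusted p = 0.0298) and was called in 10 of 15 alternatives (up to 0.156). The chaperone gene Calr fell 1.11-fold (adjusted p = 0.0286) and Pdia3, for the disulphide isomerase of the loading complex, 1.1-fold (adjusted p = 0.0487). H2-K2 was called in 7 of 15 alternatives (adjusted p up to 0.148), Rfxank in 10 (up to 0.116), Calr in 10 (up to 0.11) and Pdia3 in 4 (up to 0.175).

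MHC class II genes, which in non-immune cells are a readout of interferon-gamma, were near 0 and none of the 3 tested was called. Ciita, their master regulator, H2-Aa and H2-Ab1 were too low to test. H2-DMa was at 2.65 to 3.61 CPM in control and 3.14 to 3.22 CPM in knockout libraries, and H2-DMb1 at 1.73 to 1.88 and 1.24 to 1.47 CPM (edgeR adjusted p = 0.912 and 0.0759).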

How the data were processed

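The authors deposited raw read counts per Ensembl gene for 6 libraries of total RNA depleted of ribosomal RNA, from a kit that keeps strand, per the labels' protocols. GRCm38, DESeq2 1.16.0, featureCounts 1.5.1 and STAR 2.5.2b appear, without roles, in the submitters' processing notes. How strand and multi-mapping reads were handled, and with which annotation, is not given in the sources used here. Of 49671 identifiers, 49326 matched a symbol. Coordinates and exonic lengths are from GENCODE M21 (GRCm38), and promoters from RefSeq (GRCm38.p6).

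Columns were assigned by title and groups by the genotype label. Replicate numbers follow accession order and pair nothing. edgeR 4.0.16 in R 4.3.3 (TMM, filterByExpr, robust quasi-likelihood F-test, group as the only term, Benjamini-Hochberg adjustment over 14946 tested genes) gave the calls. The SE is the log2 fold change divided by the square root of F, and the 95% intervals are unadjusted. CPM use TMM-scaled library sizes. Totals ran from 26621293 to 33484764 counts. The common biological coefficient of variation was 5.91%. The fit was tested on simulated data.

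The members and lists were chosen with earlier results of these data known. Members were to be given in full if called or at an average log2 CPM of at least 4, which took in all 44. Of the other lists, the rule named up to 3 called genes per direction with no overlap between groups and an average log2 CPM of at least 0, or the 2 most abundant tested genes where none was called, with Tcf7l2, Psmb5, Psmb6 and Psmb7. Promoters were to be printed for called members holding a motif. No RefSeq promoter was matched for Ifi27, Nlrc5, Usp18, Oas2, Mx1, Mx2, Rtp4, Parp14 or Tap2. Alternatives were other scalings (DESeq2 size factors, upper quartile, total count), no filter or a CPM of at least 1 in 3 libraries, DESeq2 1.42.0, limma-voom (limma 3.58.1), an adjusted p under 0.01, and leaving out libraries. Some results are not reported here.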

Additional observations from a re-analysis of the deposited data

How the results depend on the processing

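Over the 15 alternatives no call changed direction, and the median log2 fold change of the 44 genes turned to -0.0106 without control replicate 2, below 0 by less than the spread between libraries. Ifi27 was called in all 15. The log2 ratio of the summed level of the 23 interferon-stimulated genes, recomputed only under the other scalings and with libraries left out, was between 0.0285 and 0.218. The number of members called higher, 1, became 2 with upper-quartile scaling, 2 with a CPM of at least 1 in 3 libraries, 7 without a filter, 4 with DESeq2, 4 with limma-voom and 4 without control replicate 3 and knockout replicate 2, and ran from 1 to 6 with each library left out. The numbers of other pathway genes called, 14 higher and 8 lower, became 4 and 4 at an adjusted p under 0.01 and 22 and 9 without that pair of libraries, and ran from 3 to 24 and from 4 to 8 with each library left out (3 without control replicate 2, 24 without control replicate 3, 4 lower without knockout replicate 3). The number of all genes called, 3346, became 1934 at an adjusted p under 0.01, 3957 without that pair, and 2145 to 3475 with each library left out, lowest without control replicate 1. It was 3313 of 14946 with upper-quartile scaling, 3229 of 12973 with the CPM filter and 3673 of 28409 without a filter. DESeq2 called 2837 of 14946 and limma-voom 3288 of 14946. The cause of these changes was not tested, beyond the stricter threshold and the fewer libraries that the alternatives bring by construction. That pair was chosen because an earlier analysis of these data found it apart, and the alternatives for the summed level were added after seeing the data. No paired analysis was possible because the labels give the libraries running numbers and none that control and knockout libraries share. With 3 libraries a group, the 95% intervals of 7 of the 43 members not called reached past 1.5-fold.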
